A study of Mus musculus with 4 samples.

Results

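Cycling chondrocytes of the mouse tibia were taken from single-cell RNA-seq of 1 library by what their barcodes contained. A barcode was a member when it held at least 1600 genes, at most 10% mitochondrial UMIs (unique molecular identifiers, each counting 1 captured mRNA molecule), Col2a1 at 100 or more UMIs per 10000 UMIs, at least 5 UMIs of Top2a and Mki67 together, Col10a1 under 20 per 10000 and at most 2 UMIs of Ptprc. The rule found 280 cells among 14181 barcodes, of which 8256 passed the gene and mitochondrial limits and 1984 also passed the Col2a1, Col10a1 and Ptprc limits. These 1984 are called the gated chondrocytes. Among them 1280 had no UMI of Top2a or Mki67 and served as non-cycling chondrocytes, and 424 had 1 to 4 such UMIs and stood between the classes.

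The cells came from 2 tibiae, pooled, of 1 male mouse at postnatal day 6. The labelled genotype was Col10a1Cre;Rosa26-Tdtomato;Irx3+/Δ;Irx5+/-, a control heterozygous for the transcription factor genes Irx3 and Irx5, and no treatment was named. By the study's own notation the Irx3 deletion is made by the Cre in the hypertrophic lineage, whereas the Irx5 allele is in all cells. Cre was driven by Col10a1, a gene of hypertrophic chondrocytes, so the reporter, read through its WPRE sequence, marks such cells and their descendants. Proximal and distal tibia without the secondary ossification centres had been digested to single cells and run on the 10x Chromium platform. The 4 sequencing entries in the labels belong to that 1 library, so there is no replicate, no difference below has a replicate check, and no test was possible. Errors are 95% exact intervals (Poisson for summed UMIs, Clopper-Pearson for shares) and cover counting error only.

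In the growth plate, chondrocytes pass from a resting pool into columns of flattened dividing cells, leave the cell cycle, enlarge as hypertrophic chondrocytes and switch from type II to type X collagen. In a dividing cell, E2F factors turn on genes for DNA replication before and during S phase, and a later group of promoters, carrying the cell cycle homology region (CHR) and CCAAT boxes, turns on genes for mitosis. Top2a, which untangles DNA, and Mki67, which coats mitotic chromosomes, are made from S phase to mitosis and are scarce in resting cells, while Col2a1 encodes the main collagen of cartilage.

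Promoters of both gene groups are shown first, because the S phase genes and the G2/M genes are the axis along which the members are described. From RefSeq sequence of GRCm38.p6, 250 bases before to 50 bases after each gene's start were searched on both strands for the E2F words TTTGGCGC, TTTCCCGC and TTTCGCGC, for the CHR words TTTGAA and TTTAAA, and for CCAAT. Matches of different words can share bases, as E2F words on opposite strands did in Mcm6 and Mcm5. Each window below is 30 bases on the strand of the gene, with the match in capitals. Mcm6 and Mcm5 encode parts of the replicative helicase and Pclaf, which is not in the S phase list and is shown for its high ratio below, encodes a partner of PCNA. Ccnb1 encodes cyclin B1, Ube2c a ubiquitin-conjugating enzyme of mitotic exit and Cdc20 an activator of the anaphase-promoting complex.
Mcm6 (E2F word, chr1:128359797-128359826, minus strand): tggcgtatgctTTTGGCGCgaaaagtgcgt
Mcm6 (E2F word, chr1:128359734-128359763, minus strand): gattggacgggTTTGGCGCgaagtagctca
Mcm5 (E2F word, chr8:75109345-75109374, plus strand): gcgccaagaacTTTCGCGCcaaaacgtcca
Pclaf (E2F word on the opposite strand, chr9:65890307-65890336, plus strand): gcttggagcgcGCGGGAAAgagacccattt
Ccnb1 (CHR word, chr13:100786511-100786540, minus strand): agcggcccggggTTTAAAcctaagcccggc
Ube2c (CHR word on the opposite strand, chr2:164769888-164769917, plus strand): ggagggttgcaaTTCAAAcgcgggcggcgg
Cdc20 (CHR word, chr4:118437344-118437373, minus strand): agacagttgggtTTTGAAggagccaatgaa

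An E2F word was found in 9 of the 21 S phase genes with a matched promoter (42.9%), in 0 of 23 G2/M genes and in 2.12% of the promoters of all 27025 genes. A CHR word was found in 20 of the 23 G2/M genes (87.0%), against 28.6% of the S phase genes and 30.6% of all promoters. CCAAT was common in both groups, in 14 of 21 S phase (66.7%) and 19 of 23 G2/M promoters (82.6%). CHR and CCAAT stood together in 17 G2/M promoters (73.9%), in 23.8% of the S phase promoters and in 13.4% of all. For 17 cartilage matrix genes the shares were 0 for E2F, 29.4% for CHR and 41.2% for CCAAT, beside 41.1% of all promoters for CCAAT. A match describes the letters in the window and not a bound site.

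The values that chose the members are given here as a description only. Top2a (chr11:98992943-99024189, minus strand, GRCm38) ran from 0 to 18.7 UMIs per 10000 in the 280 cells with a median of 3.63. Mki67 (chr7:135689784-135716361, minus strand) ran from 0 to 35.1 with a median of 2.99. Both were present in 271 cells, Top2a in 272 and Mki67 in 279, so few members rested on 1 of the genes alone. Col2a1 (chr15:97975602-98004695, minus strand) ran from 101 to 958 per 10000 with a median of 367, and Col10a1 from 0 to 13.5 with a median of 0. The sum of Top2a and Mki67 had a median of 22 UMIs and a range of 5 to 99. Just inside the limit, the 14 cells with 5 UMIs had a median of 29.5 UMIs per 10000 over the 52 S and G2/M genes used below. Just outside, the 16 cells with 4 UMIs had a median of 10.5.

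Members were deeper than the class they were compared with. They held 9892 to 79382 UMIs (median 30864) and a median of 4936 genes, against medians of 20662.5 UMIs and 3802 genes in the non-cycling chondrocytes. The mitochondrial share was alike, with medians of 3.72% and 3.63%. A limit in UMIs passes more cells where depth is higher, and the plot of chosen cells by depth shows the members on the right of the cloud.

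**Figure D1:**
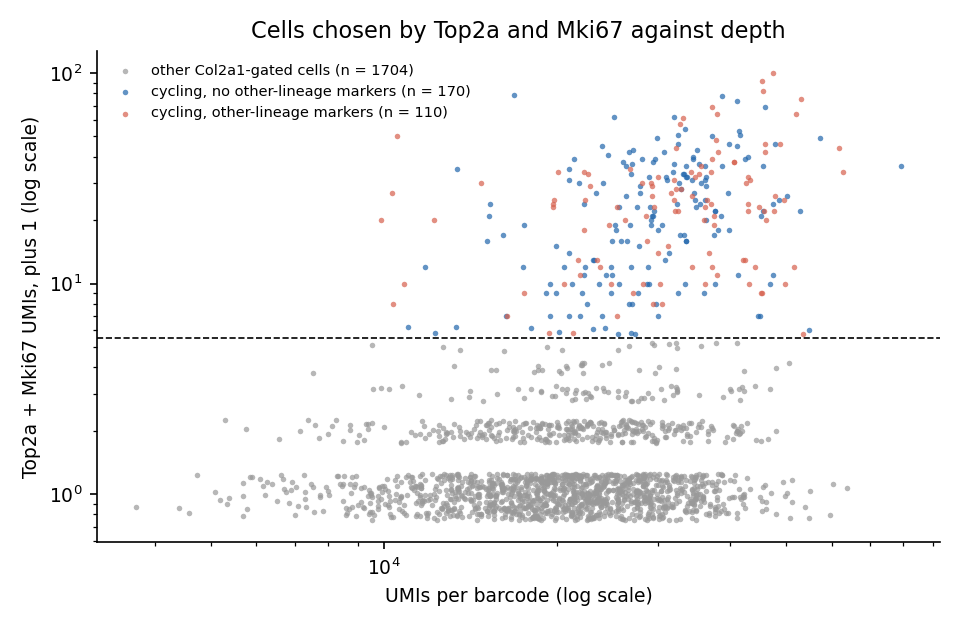
UMIs per barcode (x, log scale) against Top2a plus Mki67 UMIs with 1 added (y, log scale, points moved slightly up or down at random so that equal counts can be seen) for the 1984 gated chondrocytes. The 170 blue and 110 red members lie above the dashed limit of 5 UMIs, mostly at the deeper end of the range, and the red ones also carry markers of another lineage.

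Many members also carried mRNA of other cell types. Red blood cell markers reached 20 UMIs per 10000 in 58 members (20.7%), with a median of 1057 per 10000 in those cells. Leukocyte markers reached 5 per 10000 in 45 members (16.1%), endothelial markers reached the same limit in 8 (2.86%), and Col1a1, the main bone collagen, reached 100 per 10000 in 5 (1.79%). In all, 110 of 280 members (39.3%, interval 33.5 to 45.3) passed at least 1 of these limits, against 100 of 1280 non-cycling chondrocytes (7.81%) and 72 of the 424 cells between (16.98%). The doublet caller Scrublet marked 81 of the 110, and it marked 87 of all members (31.1%) against 54 non-cycling cells (4.22%). Results are therefore given for all 280 members and for the 170 members without these markers, each beside non-cycling chondrocytes treated alike (1280 and 1180 cells).

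In the 170 cells and their comparison class, the sums of these markers were held low by the limits that removed the other cells, so their closeness is no finding. Summed over 7 markers led by Hbb-bs, red blood cell mRNA stood at 352 CPM (UMIs per 1000000 UMIs of the class) against 359 in non-cycling cells, where all 280 members gave 23427 against 2377. Leukocyte markers led by S100a9 stood at 116 against 115 CPM, compared with 3156 against 506 over all members. Endothelial markers led by Egfl7 stood at 27.8 against 24.7 CPM, and over all members at 122 against 47.9. Hbb-bs itself was found in 166 of the 170 cells at these low levels, and these UMIs are not read as expression by the cells. Fibroblast and tendon markers, which set no limit, summed to 428 against 420 CPM, led by Dcn, but of the 4 of them that reached 10 CPM, 2 had a log2 ratio (1 CPM added to each class) of 1 or more and 0 of −1 or less, with a median of 0.83, where 8.08% and 1.47% of all genes had such ratios. These were Aspn, a small matrix proteoglycan gene, at 19.5 against 2.44 CPM and Postn, which encodes periostin, at 16.6 against 6.77, and their part in the results was not tested. Pericyte and muscle markers led by Tnnt3 summed to 120 against 123 CPM, with Tagln, of smooth muscle, lower at 4.05 against 12.6 CPM. Osteoclast markers led by Ctsk summed to 47.9 against 54.0 CPM. At 0 in the members were 1 pericyte or muscle marker, 2 osteoclast markers and 1 osteoblast marker. Osteoblast markers led by Col1a2 summed to 1275 against 1564 CPM, and over all members to 3298 against 2818. Chondrocyte markers led by Col11a1 stood at 46870 CPM in the 170 cells and 56718 CPM in non-cycling cells, so the label of chondrocyte held by these genes.

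Cells over the Col2a1 limit were cycling at 14.1% (280 of 1984, interval 12.6 to 15.7), and at 9.99% without other-lineage markers (170 of 1702, interval 8.60 to 11.5). The share differed along the growth plate genes. Cells were put in 3 zones by Pth1r, the parathyroid hormone receptor of prehypertrophic cells (2 or more UMIs per 10000), and otherwise by Ucma, a cartilage matrix protein of the upper growth plate (10 or more). In the Pth1r-high zone 81 of 863 cells were cycling (9.39%, interval 7.52 to 11.5). In the Ucma-high zone 129 of 835 were cycling (15.4%, interval 13.1 to 18.1). Cells high in neither gene were cycling in 70 of 286 (24.5%, interval 19.6 to 29.9).

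Without other-lineage markers the shares were 6.52% in the Pth1r-high zone, 12.4% in the Ucma-high zone and 14.5% in cells with neither (50 of 767, 90 of 728 and 30 of 207). The interval of the Pth1r-high zone (4.88 to 8.50) lay below both others (10.1 to 14.98 and 10.0 to 20.04), and those overlapped each other. The Pth1r-high cells were also the deepest, with a median of 26552 UMIs against 16910.5 in the Ucma-high zone. At an equal depth of 5000 UMIs per cell, where a cell counted as cycling with 1 UMI of Top2a or Mki67, the shares without other-lineage markers were 10.6%, 19.7% and 20.3%. In that count the Pth1r-high interval (8.50 to 13.0) again lay below the others (16.9 to 22.8 and 15.03 to 26.4). Hypertrophic chondrocytes, with Col10a1 at or above 20 per 10000, were at 2.63% by the same count (interval 0.320 to 9.18, 76 cells). At 10000 UMIs per cell the shares were 15.6% in the Pth1r-high zone (interval 13.1 to 18.4), 27.1% in the Ucma-high zone (23.7 to 30.6) and 23.4% in cells with neither (17.6 to 29.9), so that the first and last intervals overlapped. With Ucma at 20 per 10000 as deposited, the Ucma-high zone was at 9.98% (interval 7.42 to 13.05), overlapping the Pth1r-high zone. With a Pth1r limit of 1 per 10000 the order of the lowest zones changed, to 8.65% in cells with neither gene and 9.41% in the Pth1r-high zone.

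**Figure D2:**
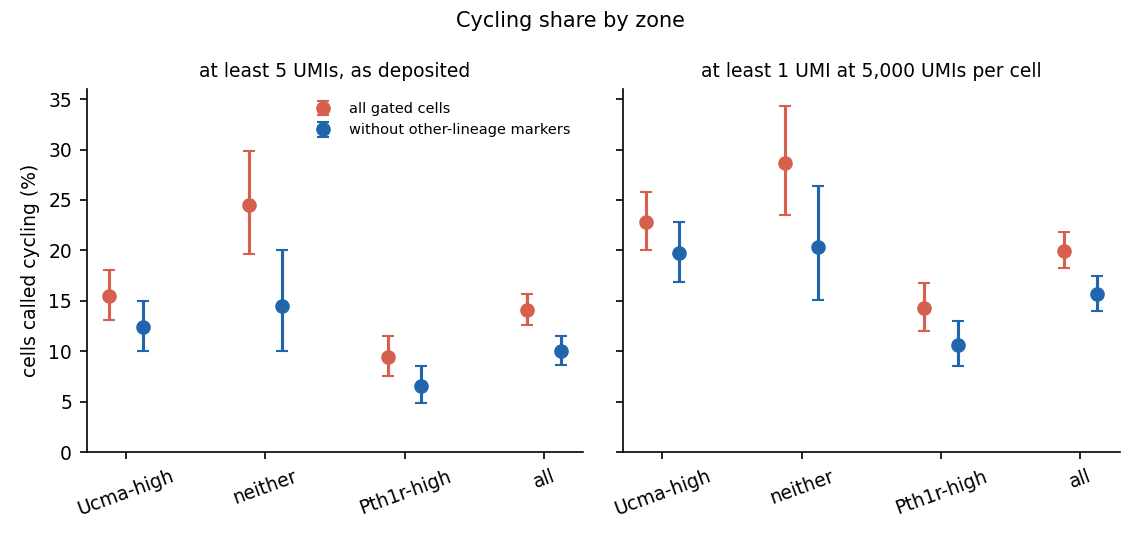
Share of gated cells called cycling (y, %) in the Ucma-high zone, the cells high in neither gene, the Pth1r-high zone and all zones (x), as deposited with the limit of 5 UMIs (left) and thinned to 5000 UMIs per cell with a limit of 1 UMI (right). Points are shares and bars are 95% Clopper-Pearson intervals, in red for all gated cells and in blue without other-lineage markers. The Pth1r-high zone is the lowest in both panels.

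Genes of the cell cycle separated the members from non-cycling chondrocytes far beyond the genes that chose them. A gene is called higher or lower here when the log2 ratio of summed CPM, with 1 CPM added to each class, is at least 1 in size, among genes at 10 CPM or more in either class. Of 7634 genes, 746 were higher in the members (9.77%) and 49 were lower (0.642%). Without other-lineage markers 601 of 7434 were higher (8.08%) and 109 were lower (1.47%), and 509 of the higher genes were shared by both counts (68.2% of 746 and 84.7% of 601). Of 180 measured cell cycle genes from 10 lists, 157 were higher and 0 lower, with a median log2 ratio of 3.13, where the median over all genes was 0.06. Without other-lineage markers 154 of 176 were higher and 2 were lower, with a median of 3.16. The cells were chosen by 2 genes of the cycle, so these counts describe the class and test nothing.

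Replication genes were higher as a group. All 16 measured genes of replication licensing and origin firing were higher, with a median log2 ratio of 2.64 in the 170 cells. Mcm3 stood at 93.2 CPM (interval 85.1 to 102) in the members and 12.4 in non-cycling cells, a log2 ratio of 2.81. Mcm5 stood at 82.6 CPM (74.96 to 90.8) and 6.25, a ratio of 3.53, and Gmnn, which blocks a second licensing in the same cycle, at 95.5 (87.3 to 104) and 5.00, a ratio of 4.01. Of 27 genes of DNA synthesis and nucleotide supply, 26 were higher (median 2.68). Dut, which removes dUTP, stood at 474 CPM (456 to 494) and 88.8. Rrm2, a subunit of ribonucleotide reductase, stood at 172 CPM (160 to 183) and 7.87. Pcna, the sliding clamp, had a smaller ratio of 1.92 (132 against 34.1 CPM) and was found in 48.6% of non-cycling cells as well as 86.5% of the members. All 11 DNA repair genes were higher (median 3.28).

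Genes of chromatin assembly and chromosome structure went the same way. Of 14 chromatin replication genes 13 were higher (median 2.88). The histone variant gene H2afz stood at 2216 CPM (2176 to 2257) against 402, and the DNA-bending protein gene Hmgb2 at 2089 against 164, a ratio of 3.66. Of 13 condensin and cohesin genes 11 were higher (median 3.24), with Smc2 of condensin at 215 against 6.06 CPM and Rad21 of cohesin at 208 against 42.8. Smc2 thus had a log2 ratio of 4.93 and Rad21 one of 2.25.

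Mitotic genes had the largest ratios. Members were chosen by Top2a and Mki67 and non-cycling cells by lacking both, so the order of the lists in size is a description only. Of 36 spindle, kinetochore and cytokinesis genes all 36 were higher, with a median log2 ratio of 4.80, and of 20 mitotic cyclins, kinases and checkpoint genes 19 were higher (median 4.51). Ccnb1 stood at 113 CPM (104 to 122) in the 170 cells and 0.826 (0.511 to 1.26) in non-cycling cells, a ratio of 5.96. It was found in 112 of the 170 cells (65.9%, median depth 29361.5 UMIs) and in 1.69% of non-cycling cells (median depth 20454.5), which is its background share here. Cdk1, the mitotic kinase, stood at 337 against 5.70 CPM and Birc5, of the chromosomal passenger complex, at 389 against 5.78. Birc5 ran from 0 to 10.6 UMIs per 10000 in the 170 cells with a median of 3.90, and was found in 97.1% of them. Pttg1, which holds separase inactive, was the exception among the mitotic genes, at 24.7 (20.6 to 29.4) against 22.0 CPM.

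Genes that act at entry into the cycle differed less. Of 17 G1 cyclins, CDKs and E2F genes 10 were higher, with a median of 1.64. E2f1 (46.1 against 8.10 CPM), E2f8 (52.9 against 1.53) and Ccne1, cyclin E1 (39.9 against 4.13), were past the limit. The D cyclins were not, with Ccnd1 at 69.5 (62.5 to 77.0) against 57.0 CPM and Ccnd2 at 140 against 134, nor was their partner Cdk4 at 249 against 160. E2f2 had a ratio of 3.89 over all 280 members (61.4 against 3.21 CPM) and 1.42 without other-lineage markers (7.91 against 2.32). Both of the latter levels were under the filter of 10 CPM, so E2f2 was not among the genes measured there. The part of the red blood cell and leukocyte mRNA in the ratio over all members was not tested. The p53 targets had a median of −0.26, and their 0 of 6 past the limit is no result beside 8.08% of all genes higher and 1.47% lower.

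Inhibitors of cyclin-dependent kinases went in both directions. Cdkn1c (chr7:143458339-143461050, minus strand), which encodes p57, stood at 872 CPM (846 to 897) in the 170 cells and 1896 (1879 to 1913) in non-cycling cells, a log2 ratio of −1.12. Over all 280 members the ratio was −0.90, inside the limit. Cell by cell the classes overlapped, with 1.21 to 38.5 UMIs per 10000 (median 7.22) in the 170 cells and 0 to 131 (median 9.65) in the others. Cdkn2c, which encodes p18, was higher instead, at 83.2 CPM (75.5 to 91.4) against 15.03. Cdkn2d, for p19, stood at 113 against 36.8 and the phosphatase gene Cdkn3 at 77.8 against 3.78. Cdkn1a, for p21, was at 185 against 269 CPM and Cdkn1b, for p27, at 13.1 against 17.6, both inside the limit.

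Not all histone genes of the replication-dependent clusters went the same way. Of 16 measured, 9 were higher and 1 was lower without other-lineage markers. Over all members 10 of 17 were higher and 0 were lower. Hist1h1b stood at 120 CPM (111 to 130) against 1.06 and Hist1h2ap at 233 against 7.79. Hist1h2ac was lower in the cycling cells, at 51.0 CPM (44.99 to 57.5) against 115, and Hist1h2bc stood at 238 against 453, a ratio of −0.92. Over all members the ratio of Hist1h2ac was −0.96, inside the limit. Histone genes of these clusters are near copies of each other and most of their mRNA lacks a poly(A) tail, so levels of single ones are uncertain in poly(A)-primed libraries.

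**Figure D3:**
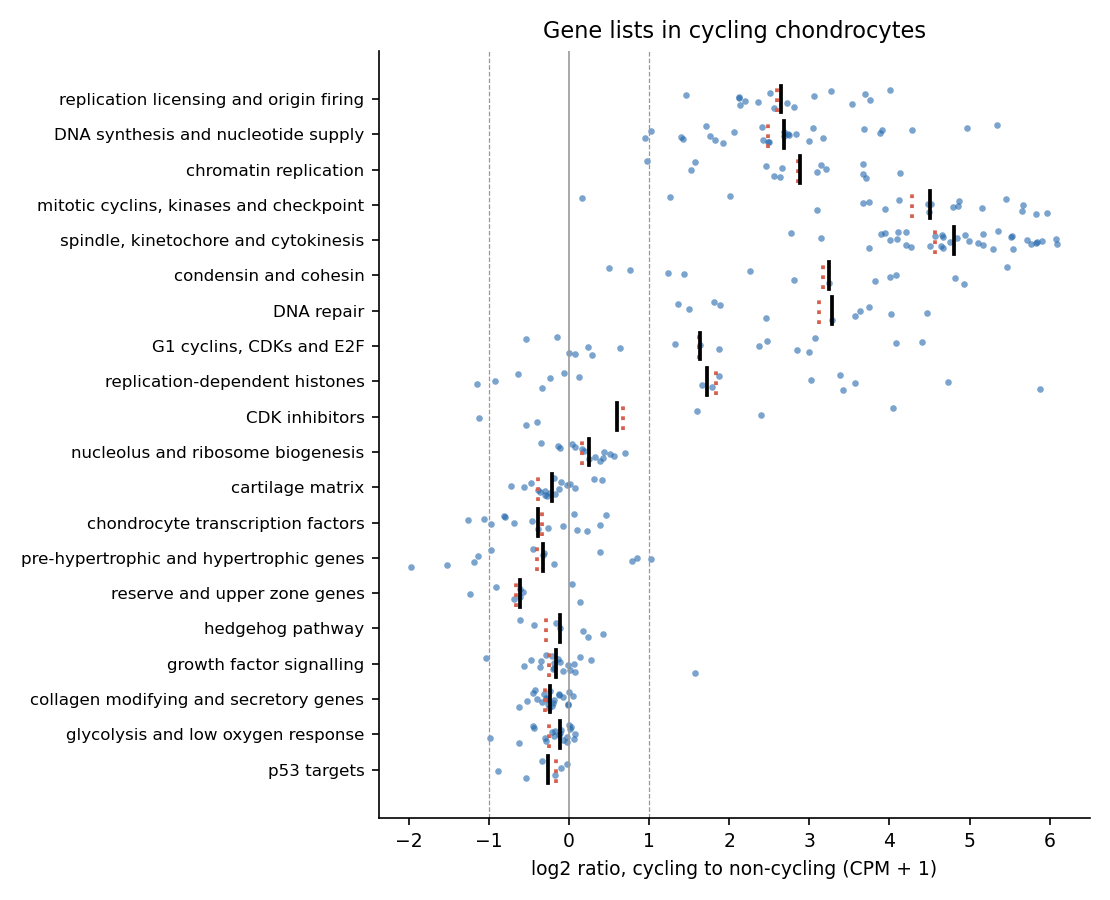
Log2 ratio of summed CPM plus 1, cycling against non-cycling chondrocytes (x), for the genes of 20 lists (y). Points are genes in cells without other-lineage markers, black bars the list medians, dotted red bars the medians over all members, and dashed lines the limit of 1 in size. The 9 upper lists lie to the right of 1 in most genes, and the cartilage, signalling and metabolic lists lie around 0.

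Cartilage matrix genes summed to 54894 CPM in the 170 cells and 66328 CPM in non-cycling cells. Their median log2 ratio was −0.21 (−0.38 over all members), beside 0.06 over all genes. None of 18 was past the limit (0 of 17 over all members), which with 1.47% of all genes lower is no result about the list, and the same holds for the other counts of 0 in this paragraph. Acan, which encodes aggrecan, stood at 5639 CPM against 6827 and Col9a1 at 5501 against 6752. Hapln1, the link protein of aggrecan, was lower than most of its list at 3675 against 6085, a ratio of −0.73. The chondrocyte factor Sox9 stood at 886 CPM (861 to 912) against 1160, and its partners Sox5 (201 against 173) and Sox6 (106 against 98.3) differed by little. Of 15 chondrocyte transcription factor genes, 2 were lower, Foxa2 (3.67 against 10.2 CPM) and Foxa3 (31.8 against 67.5), both of which act in hypertrophic maturation. Over all members 0 of 14 genes of this list were lower, so neither call held there. Hedgehog pathway genes gave 0 of 7 past the limit, with the receptor gene Ptch1 at 212 against 179 CPM. Genes of collagen modification and secretion gave 0 of 22 (median −0.25), nucleolar and ribosome biogenesis genes 0 of 15 (median 0.25) and glycolysis genes 0 of 20 (median −0.12), with Aldoa at 413 against 820 CPM the nearest to the limit.

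Of 13 prehypertrophic and hypertrophic genes, 4 were lower in the 170 cells (1.47% of all genes were) and 1, Spp1, was higher. Over all 280 members 2 of 13 were lower and 0 higher. Ihh, the hedgehog ligand of prehypertrophic cells, stood at 13.7 CPM (10.7 to 17.3) against 56.6 (53.7 to 59.6), a log2 ratio of −1.97. It was found in 17.1% of these members and in 24.7% of the non-cycling cells, shares that differed less than the summed levels. The non-cycling cells were shallower, and the part of depth in these shares was not tested. Panx3, a channel of maturing chondrocytes, stood at 137 against 304 CPM and Alpl, the alkaline phosphatase of mineralizing cells, at 23.4 against 54.4. Pth1r stood at 191 against 553, but Pth1r also sets the zones. Spp1, osteopontin, was at 453 CPM against 223, and 77.6% of its UMIs in the 170 cells came from 1 cell, so its ratio of 1.02 rests on that cell. Igf1, the 1 growth factor signalling gene of 20 that was higher (16.98 against 5.03 CPM), drew 83.0% of its UMIs from 3 cells. Ctgf, a matrix signalling protein also called Ccn2, was lower at 465 against 958 CPM. Over all 280 members 0 of 20 growth factor signalling genes were higher and 0 were lower. Of 8 reserve and upper zone genes 1 was lower, the Wnt inhibitor gene Wif1 at 4.82 against 12.8 CPM. The median log2 ratio of this list was −0.61, beside 0.06 over all genes. Over all 280 members 1 of 9 was higher and 2 were lower (median −0.67), where 9.77% and 0.642% of all genes were.

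The classes differed in their zones, and zone moved with these ratios. Pth1r-high cells made up 29.4% of the 170 members and 47.3% of their non-cycling comparison. Within the Pth1r-high zone Ihh stood at 30.4 CPM in cycling and 93.5 in non-cycling cells, a ratio of −1.59. In the Ucma-high zone it was at 4.77 against 3.89. Cdkn1c behaved alike, with a ratio of −1.25 in the Pth1r-high zone (1117 against 2665 CPM), −0.04 in the Ucma-high zone (819 against 844) and −0.35 in cells with neither gene. Both genes were past the limit in the Pth1r-high zone and in neither of the others. The Ihh levels in the Ucma-high zone were under the filter of 10 CPM, so no call could be made for Ihh there. Only 30 members were high in neither gene. Aldoa (−0.81, −0.98 and −0.93 in the same order) and Sox9 (−0.42, −0.45 and −0.34) had like ratios in all 3 zones. Of the 109 lower genes, 94 were below 0 in all 3 zones and 19 were past the limit in each, against 592 and 457 of the 601 higher genes.

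**Figure D4:**
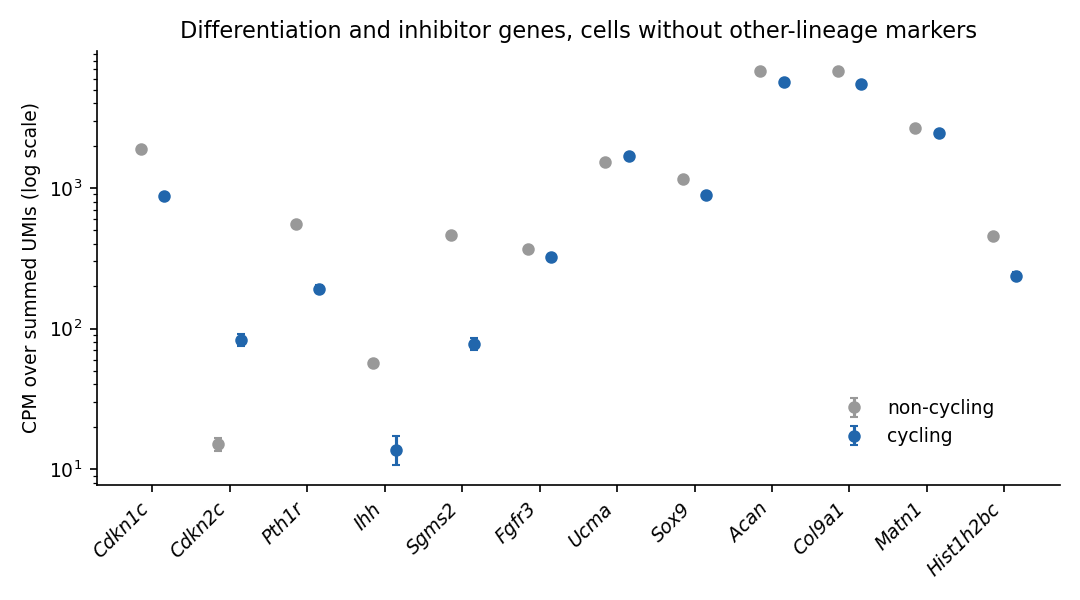
Summed CPM (y, log scale) of 12 genes (x) in non-cycling (grey, 1180 cells) and cycling chondrocytes (blue, 170 cells) without other-lineage markers, with 95% Poisson intervals that are often smaller than the points. Cdkn2c is higher in cycling cells, Cdkn1c, Pth1r, Ihh and Sgms2 are lower, Hist1h2bc at a ratio of −0.92 is inside the limit, and Acan, Col9a1 and Matn1 lie close together.

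Outside the lists, Pbk and Pclaf had the highest ratios. Pbk, a mitotic kinase, stood at 178 CPM (167 to 190) against 0.747, a ratio of 6.68, and was found in 92.4% of the 170 cells. Pclaf, whose promoter window is shown above, stood at 304 CPM (289 to 319) against 3.15, a ratio of 6.20. Stmn1, which takes microtubules apart, stood at 541 against 22.5. Depdc1a, Knstrn, Cenph, Dtl, Zfp367 and the noncoding RNA Lockd were also among the 10 highest. Over all 280 members the 10 highest included Hemgn, Car2 and Slc4a1 of red blood cells and Camp of neutrophils. Camp stood at 839 against 62.1 CPM there and at 17.8 against 20.3 without other-lineage markers. Car2, carbonic anhydrase 2, stayed higher in the 170 cells (41.1 against 4.76 CPM), with 91.1% of its UMIs in 3 cells.

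Among genes lower in the cycling cells, Sgms2 led. Sgms2 (chr3:131318985-131491411, minus strand), which encodes a sphingomyelin synthase of the plasma membrane, stood at 77.4 CPM (70.0 to 85.4) in the 170 cells and 466 (458 to 474) in non-cycling cells, a log2 ratio of −2.57. Over all members it stood at 137 against 448 CPM, a ratio of −1.70. Its ratio was −2.34 in the Pth1r-high zone (146 against 740 CPM), −1.10 in cells with neither gene and −0.80 in the Ucma-high zone, so the direction was the same in each and the size was not. Tnni2, a troponin subunit, stood at 12.9 (10.0 to 16.4) against 77.7 CPM, with ratios of −2.50, −2.52 and −1.58 in the same order. Sidt2, a lysosomal membrane protein, stood at 26.8 against 85.4 and Cgref1, a secreted calcium-binding protein, at 23.0 against 65.8. Ypel3, H2-K1, Il11, Smim5, Lmcd1 and Pdgfa were the others of the 10, with ratios between −1.33 and −1.20. By the same rule over all members, Penk, Htra1, Aldoc, Slc8a3 and Hbegf stood in place of Ypel3, H2-K1, Il11, Lmcd1 and Pdgfa.

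The members themselves spanned S phase to mitosis. For each cell, the UMIs of 25 S phase genes were divided by the sum of these and the UMIs of 27 G2/M genes. This S share ran from 2.35% to 95.2% over the 280 members with a median of 49.7%, and 140 of them were at 50% or more. Without other-lineage markers the median was 47.3%, with 82 of 170 at 50% or more (48.2%). Members held a median of 51.2 UMIs per 10000 of these genes (range 5.15 to 114), cells between the classes 4.59 and non-cycling cells 3.55. Of 1704 gated cells that the rule left out, 11 (0.646%) held as many as the lower quartile of the members (32.0 per 10000). These 11 had a median S share of 85.0%, with 8 of them over 50%. Most cells left out had such shares, 1215 of the 1280 non-cycling cells (94.9%) being at 50% or more. The same held for 365 of the 424 cells between (86.1%). The 8 of 11 are therefore no result about the phase of cells that the rule missed.

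**Figure D5:**
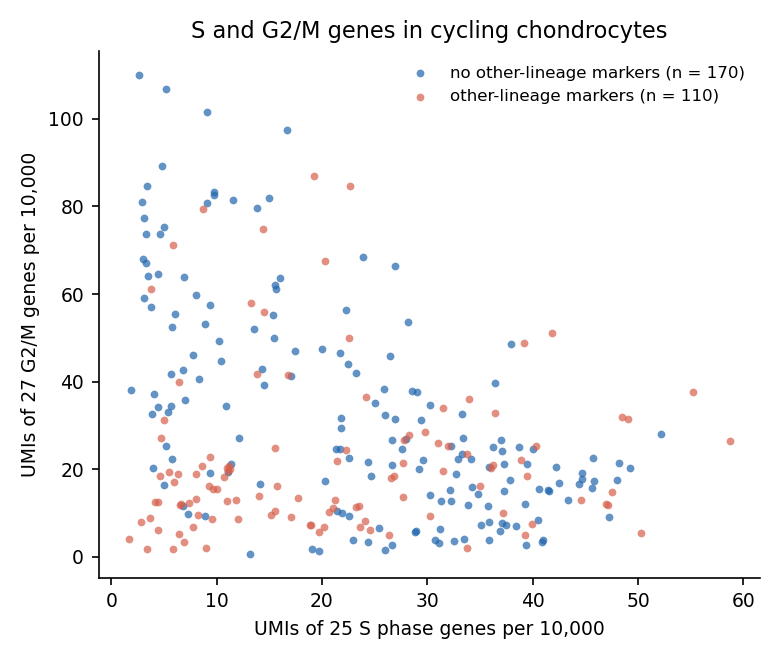
UMIs per 10000 of 25 S phase genes (x) against 27 G2/M genes (y) in each of the 280 members, in blue without (170 cells) and in red with other-lineage markers (110 cells). Cells high on one axis are mostly low on the other, and the red cells gather in the lower left part.

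The 170 cells were ordered by S share and divided into an S-leaning group of 56, a middle group of 58 and a G2/M-leaning group of 56, with median S shares of 76.8%, 47.3% and 12.2%. Depth was close, at medians of 28170.5, 30084.5 and 29394 UMIs. Since the order was made from the S and G2/M genes, what those genes do along it is given as a description. The sum of Top2a and Mki67 had a median of 11.5 UMIs in the S-leaning group, 29.5 in the middle and 22.5 in the G2/M-leaning group. Between the outer groups 457 of 7629 genes were higher in the S-leaning cells (5.99%) and 466 in the G2/M-leaning cells (6.11%). Over all members, in outer groups of 93 each, the counts were 357 of 7758 (4.60%) and 303 (3.91%).

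Of 19 licensing genes 18 leaned to S and 1, Dbf4, to G2/M. Mcm6 stood at 167, 87.6 and 8.64 CPM in the S-leaning, middle and G2/M-leaning groups. E2f1 went from 92.8 over 37.0 to 6.79 and Ccne1 from 59.2 over 52.2 to 5.56. These 3 genes were lowest in the last group. Of 36 spindle and kinetochore genes, 28 leaned to G2/M and 0 to S. Cenpa, the centromeric histone, stood at 17.4, 138 and 596 CPM. Ccnb1 stood at 15.1, 65.8 and 270 and Cdc20 at 39.5, 125 and 468. Of the inhibitors, Cdkn3 stood at 13.3, 68.6 and 157 CPM while Cdkn1c stood at 826, 808 and 992.

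Ccnd1 had its highest level in the S-leaning group (110, 52.2 and 46.3 CPM). The matrix and secretory genes had median log2 ratios of 0.03 and 0.02 between the outer groups, beside −0.02 over all genes. Their 0 of 18 and 0 of 22 past the limit are near the shares over all genes (5.99% and 6.11%) and are no result about these lists. Acan, for example, stood at 5761, 5525 and 5640 CPM in the groups, and Col9a1 and Matn1 differed as little. Of 15 nucleolar genes, 2 leaned to S (median 0.67). The nucleolar protein gene Npm1, at 2363, 2045 and 1512 CPM, was inside the limit.

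Of genes outside the lists, Dtl, which targets licensing factors for breakdown, leaned to S (113, 68.6 and 20.4 CPM), as did Pclaf, Zfp367, Atad5, Hat1, Rnaseh2a, Alad and Gpx1. Most UMIs of Alad and Gpx1 lay in members with other-lineage markers (691 UMIs of Alad over all members and 192 in the 170, 2695 and 531 of Gpx1), and 3 cells held 29.6% of the Gpx1 UMIs in the 170. Pimreg, Knstrn, Gas2l3, Arl6ip1, Kpna2, Lockd, Sytl2 and Prune2 leaned to G2/M. Sytl2 (chr7:90302252-90410719, plus strand), a Rab27 effector of vesicle transport, stood at 20.3, 62.0 and 153 CPM, and was found in 123 of the 170 cells. Against non-cycling chondrocytes it stood at 76.4 (69.1 to 84.3) against 13.9 CPM, a ratio of 2.38. In osteoblast-lineage cells, taken by Col1a1, it was at 29.0 CPM in cycling and 37.0 in non-cycling cells. Prune2 went from 12.8 over 33.7 to 66.0 CPM.

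Cycling chondrocytes were set beside cycling cells of the osteoblast lineage in the same library, 94 cells in all and 66 without the red blood cell, leukocyte and endothelial markers. Between these classes 707 of 8420 genes were higher in the chondrocytes (8.40%) and 1052 were lower (12.5%). Without other-lineage markers 791 of 8290 were higher (9.54%) and 1396 lower (16.8%). Of 18 cartilage matrix genes 17 were higher in the chondrocytes, and 9 of 10 osteoblast markers were lower, as the choice of both classes by collagen genes made them. Of 20 glycolysis and low oxygen genes, which did not enter the choice, 17 were higher, with a median log2 ratio of 1.56. Without other-lineage markers this list summed to 10741 CPM in cycling and 12242 CPM in non-cycling chondrocytes, with a median log2 ratio of −0.12. The difference from the osteoblast lineage is therefore not read as particular to cycling chondrocytes. Pgk1, a glycolytic kinase, stood at 1374 CPM in cycling chondrocytes and 180 in the cycling osteoblast-lineage cells, and Ldha at 1473 against 536.

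Cycling and non-cycling cells of both lineages were chosen by the same Top2a and Mki67 limits, so that cell cycle genes were higher in both follows from the rule and is given as a description. Of 157 cell cycle genes at 20 CPM or more in either cycling class, 138 were higher in cycling than in non-cycling cells of each lineage, where 390 of all 6057 such genes were (6.44%). Over all cells the counts were 137 of 157 and 438 of 6077 (7.21%). The ratio differed by at least 1 between the lineages for 18 genes, 12 with the larger ratio in chondrocytes and 6 in osteoblast-lineage cells. Of all 6057 genes at that level, 1.90% had the larger ratio in chondrocytes and 2.28% in osteoblast-lineage cells. Prc1, of the central spindle, had the larger ratio in chondrocytes by 2.01, at 213 against 2.12 CPM, where osteoblast-lineage cells had 104 against 5.19. The spindle gene Aspm differed by 1.52, Ccnb1 by 1.45 and Cks2, a partner of Cdk1, by 1.35. Cdc6, which loads the helicase, differed by 1.51, E2f8 by 1.501 and the nuclease gene Exo1 by 1.23. Hist1h4d differed by −3.13, Hist1h2ac by −2.60 and Hist1h2bc by −1.71. Hist1h2ac stood at 26.2 against 8.95 CPM in the osteoblast lineage, the other direction from the chondrocytes. Over all cells the difference was at least 1 for 8 genes, of which 3 (Prc1, Aspm and Cks2) had the larger ratio in chondrocytes and 5 in osteoblast-lineage cells, beside 1.88% and 1.71% of all 6077 genes.

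The reporter was at the background level in cycling chondrocytes. The study's limit of WPRE over 14 for descendants of hypertrophic chondrocytes was given with no unit and is applied here to UMIs, which may not be the same scale. It was passed in 5 of 280 members (1.79%, interval 0.582 to 4.12). In Ptprc-positive blood cells outside the gate, which should lack it, the share was 1.46% (19 of 1298, median depth 12579.5 UMIs). Non-cycling chondrocytes were at 0.625%, hypertrophic chondrocytes at 46.9% (38 of 81) and osteoblast-lineage cells at 20.3% (137 of 674). The study chose its limit to match the share of reporter-positive hypertrophic chondrocytes it had measured. That share was above the 46.9% found here, so the limit may not act here as it did in the study. WPRE mRNA in any amount was found in 71 of 280 members, 256 UMIs in all. It was found in 323 of the 1298 Ptprc-positive cells and in 258 of 1280 non-cycling chondrocytes, so the count in the members is not read as expression.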

How the data were processed

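For the samples used here the authors sequenced 1 library and deposited raw UMI counts per gene and barcode. The submitters' processing notes name Cell Ranger 3.1.0, mm10 and Seurat 3, and the study's methods add reporter sequences to the reference. Their annotation release was not given in the sources used here. In all, the gene matrix held 158281984 UMIs in 14181 barcodes, 8705 of them with at least 1600 genes. All 4 labelled samples are sequencing entries of this library and were used as 1 sample.

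Cells were selected by the rule given in the opening. UMIs were summed per class and scaled to CPM, and log2 ratios were taken with 1 CPM added, over genes that reached 10 CPM in either class. Named genes were those of the gene lists (the 2 to 6 with the highest level past the limit, and those named as not past it). Outside the lists they were the 10 highest and 10 lowest ratios among genes with 50 CPM, 100 UMIs, 20% of cells and 1 direction in all 3 zones, the 8 highest and 8 lowest along the S share, and up to 10 cell cycle genes that differed by 1 between lineages. Genes named beyond this (Hapln1, Cdkn1b and others that did not pass the limit, Spp1, Igf1 and Car2 for single cells, or Aspn, Postn and Tagln as markers) were chosen after their values were seen. Some genes that the rule names are not reported here. The members and lists were chosen with earlier results of these data known, and the other-lineage limits after seeing the data. Doublets were marked with Scrublet in scanpy 1.11.5 and not removed in the first count. Osteoblast-lineage cells had Col1a1 at 100 or more and Col2a1 under 100 per 10000. Python 3.11.15, numpy 2.4.6, scipy 1.17.1, pandas 2.3.3 and matplotlib 3.10.9 were used. The fold rule was run on simulated sums with Poisson counting error and no variation between cells. That run does not show how the rule acts where few cells hold most UMIs of a gene. Gene positions come from the GENCODE annotation of GRCm38. Alternatives changed the limits of the rule, the pseudocount, the filter, the scaling, the depth and the comparison class.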

Additional observations from a re-analysis of the deposited data

Results flagged for a closer look

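A sequence outside the gene annotation was found in cells where the labels name no such element. EGFP had 60 UMIs over the barcodes of the gene matrix, in 53 barcodes, where a count of 0 would allow 3. None of the 280 cycling chondrocytes held one of them. The source of these UMIs was not tested.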

How the results depend on the processing

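With 1 library, no replicate could be left out. No paired analysis was possible because the 4 labelled entries share 1 library and 1 matrix. Of 86 values of the counts and shares, 66 stayed within the limits set for them and 20 moved. Of 228 values of single gene ratios, 130 stayed and 98 moved. The share of gated chondrocytes that were cycling, 14.1%, was 16.2% with 3 UMIs of Top2a and Mki67 as the limit, 11.1% with 10 UMIs, 11.7% with Col2a1 at 300 per 10000, 10.7% without Scrublet-marked barcodes, 11.9% without barcodes high in Col1a1 or red blood cell markers, 9.99% without other-lineage markers (chosen after seeing the data), and 19.9% and 25.9% with cells thinned to 5000 and 10000 UMIs and 1 UMI required. The 746 higher genes were 443 with 10 CPM added, 214 with a filter at 50 CPM and 1204 with no filter. The 49 lower genes were 75 with Col2a1 at 300 per 10000, 74 without Col1a1-high or red blood cell barcodes, 109 without other-lineage markers, 9 with 10 CPM added, 17 with the 50 CPM filter and 124 with none. The 707 genes higher than in cycling osteoblast-lineage cells were 443, 287 and 1406 under the last 3 settings. The share of members leaning to S stayed between 46.6% and 52.2%. Of 12 gene ratios, 11 kept their direction in 19 of 19 alternatives and Ucma in 15 of 19 (−0.37 to 0.14). Cdkn1c ran from −1.12 to −0.39, Ihh from −2.06 to −0.46 and Sgms2 from −2.57 to −0.86. Pth1r ran from −1.53 to −0.28 and Fgfr3 from −0.40 to −0.12. The causes were not tested. Depth limits genes under about 10 CPM, and the lack of a second animal limits every comparison.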
